A study of Mus musculus with 26 samples.

Results

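The acute cold response of control brown adipose tissue (BAT) was described from 12 of the 26 RNA-sequencing libraries of the series. The 12 were chosen by their labels: 5 control mice kept at 5 °C for 6 h and 7 control mice kept at thermoneutrality. All were male C57BL/6J mice of 12 to 16 weeks of age, housed singly with free access to food, and all had first spent 2 weeks at thermoneutrality, which the methods give as 29 °C and the labels as 30 °C. The methods' value is used here. The labels call their genotype WT, and the methods describe them as littermates of fat-specific Afadin knockout (FAKO) mice, in which Adiponectin-Cre deletes a floxed Mllt4 gene. Whether the control mice carried floxed alleles is not given in the sources used here, nor is the hour of dissection. The remaining 14 libraries come from mice labelled FAKO at both temperatures and were used to estimate the spread between mice and for 1 comparison of the responses.

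Brown fat is a heat-producing tissue. In the cold, noradrenaline from sympathetic nerves acts on β-adrenergic receptors of the brown adipocyte, cyclic AMP rises, and protein kinase A starts both the breakdown of stored triglyceride and the transcription of thermogenic genes. Fatty acids then feed and open uncoupling protein 1 (Ucp1), which lets protons return across the inner mitochondrial membrane without making ATP. At thermoneutrality this drive is low and the tissue stores lipid.

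The libraries were made from total RNA depleted of ribosomal RNA, and the deposited values are counts of reads per gene. Totals ran from 12705969 to 18262061 counts per mouse at 29 °C and from 16334772 to 25732258 at 5 °C. Levels are given in counts per 1000000 counts (CPM) after scaling, as the mean ± SD over 7 mice at 29 °C and 5 mice at 5 °C. Values of the single cold mice are given in the order of mice 16, 17, 18, 19 and 21. Changes from 29 °C to 5 °C are given in log2 units ± SE, so that 1 unit is a 2-fold change. A gene is said to have risen or fallen where the adjusted p (false discovery rate, FDR) of edgeR's quasi-likelihood test was below 0.05. Of 17286 genes tested, 5454 rose (31.6%) and 5779 fell (33.4%), and the median change over all of them was -0.01 log2 units. Tested against a 2-fold change rather than against none, 959 genes rose (5.55%) and 1451 fell (8.39%). The 5 cold mice and the 7 mice at 29 °C did not overlap in 8017 genes (46.4%). Many genes named below were selected by a rule that asks for this, so their lack of overlap is not a separate result. In a principal component analysis of log2 CPM, the first component held 71.1% of the variance and put all 7 mice at 29 °C below 0 and all 5 at 5 °C above it. The second held 13.0%, and its highest value was that of mouse 7 at 29 °C.

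**Figure D1:**
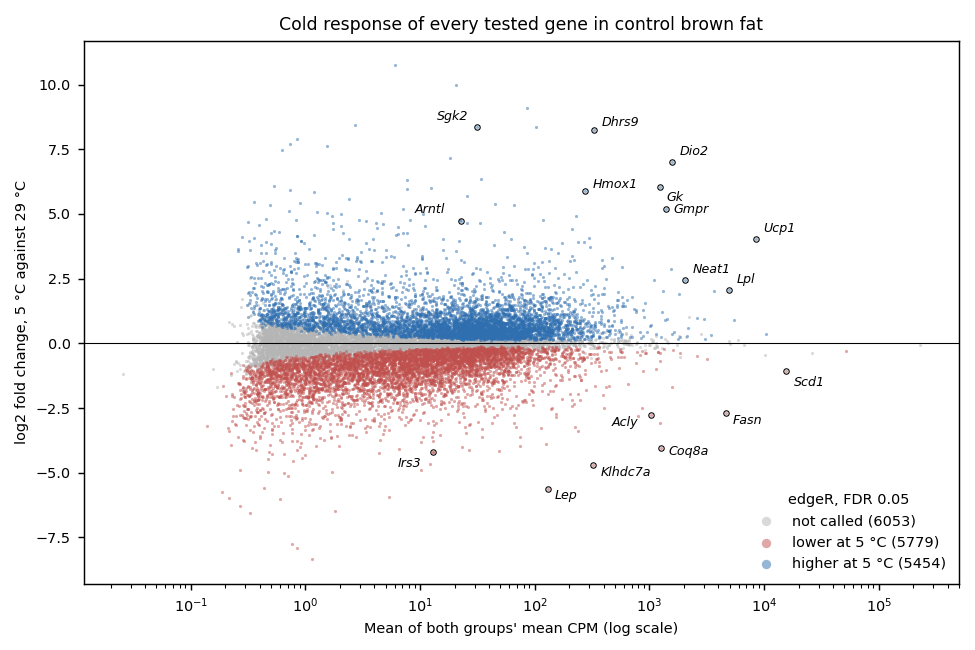
Each point is 1 of 17286 tested genes, with its mean level in CPM on a log axis and its log2 fold change from 29 °C (n = 7 control mice) to 5 °C (n = 5). The 5454 genes in blue rose and the 5779 in red fell at an FDR of 0.05, and calls in both directions are seen at low and at high levels.

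Brown adipocyte markers summed to 10007 to 11774 CPM at 29 °C and 28872 to 33034 at 5 °C, with 4 of 12 risen, Ucp1 among them, and 4 fallen. Skeletal muscle markers varied most between mice, from 72.8 to 14797 CPM in sum at 29 °C and from 46.0 to 15269 at 5 °C, and 0 of the 15 rose or fell in edgeR, 0 of them at an unadjusted p below 0.05 and 0 in DESeq2. Mouse 7 at 29 °C and mouse 16 at 5 °C held the most muscle RNA. Without both of them, 5265 genes rose and 5767 fell. In mouse 7 the mitochondrially encoded genes took 14.3% of the counts, against 33.9 to 40.5% in the other 6 mice at 29 °C. The mean share was 34.1 ± 9.08% at 29 °C and 29 ± 3.20% at 5 °C (exact two-sided permutation test, p = 0.285), and without mouse 7 the difference was -8.35 percentage points (exact permutation p = 0.00433). The 10 most abundant genes took 38.7 ± 7.39% at 29 °C and 33.5 ± 2.85% at 5 °C (exact two-sided permutation test, p = 0.172), and without mouse 7 the difference was -7.90 percentage points (exact permutation p = 0.00433). Each mouse was left out in turn, and both differences passed the threshold only without mouse 7. The p without mouse 7 is the smallest that 6 mice against 5 can give. Of the other cell types, B cell markers fell in 6 of 8 (11.3 to 26.6 CPM in sum at 29 °C, 3.39 to 6.35 at 5 °C), T and NK cell markers in 5 of 11, Schwann cell and nerve markers in 4 of 10 and mast cell markers in 1 of 5. Mast cell markers summed to 38.2 to 75.8 CPM at 29 °C and 10.8 to 13.4 at 5 °C. Schwann cell and nerve markers summed to 169 to 202 CPM at 29 °C and 111 to 138 at 5 °C. Neutrophil markers rose in 4 of 6 and fell in 1 of 6, with sums of 2.5 to 6.74 CPM at 29 °C and 5.58 to 11.9 at 5 °C. Endothelial markers rose in 7 of 13 and fell in 5, macrophage markers rose in 5 of 12 and fell in 3, smooth muscle and pericyte markers rose in 4 of 10 and fell in 5, and fibroblast markers rose in 1 of 10 and fell in 2. Of 8 red blood cell markers, 1 mesothelium marker and 1 hepatocyte marker tested, 0 passed in edgeR, 0 at an unadjusted p below 0.05 and 0 in DESeq2, and no epithelial marker was expressed highly enough to be tested. Of all tested genes 31.6% rose and 33.4% fell, and these marker counts were not tested against those shares. In bulk tissue, fewer cells of a type and less RNA per cell cannot be told apart.

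**Figure D2:**
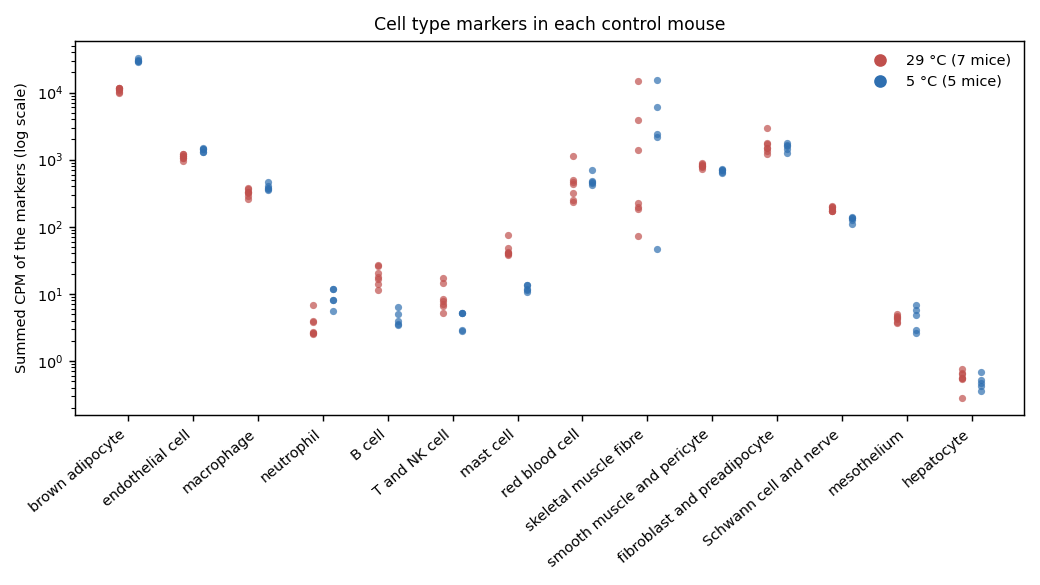
Summed CPM of the tested markers of 14 cell types on a log axis, 1 point per control mouse. Brown adipocyte markers, which include Ucp1, lie between 28872 and 33034 CPM at 5 °C against 10007 to 11774 at 29 °C, and the skeletal muscle sums span a wide range at both temperatures.

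By summed CPM the response was uneven. The genes that rose gained 209864 CPM together, of which Ucp1 held 7.16% and the 10 largest gains 21.3%. Together the genes that fell dropped by 112591 CPM, of which the 10 largest losses held 35.2%. These sums follow transcript length as well as number of molecules, and scaled CPM need not sum to the same total in both groups. Ucp1 rose from 985 ± 234 to 16005 ± 552 CPM. The other large gains were those of Lpl, the lipase that frees fatty acids from circulating lipoproteins, from 1939 ± 276 to 8046 ± 1003 CPM, of Acsl1, which activates fatty acids to acyl-CoA, from 1461 ± 299 to 5931 ± 980.2 CPM, and of Fabp4, a carrier of fatty acids inside the cell, from 3759 ± 167 to 7133 ± 236 CPM. Gmpr, the enzyme that turns guanosine monophosphate back into inosine monophosphate, was among the 10 largest gains as well. It was at 2502, 2826, 2949, 2931 and 2392 CPM in the 5 cold mice, against a lowest, median and highest value of 50.7, 76.6 and 96.3 CPM in the 7 mice at 29 °C. Its lowest cold mouse lay far above the highest mouse at 29 °C, and the change was 5.18 ± 0.19 log2 units (adjusted p = 7.18e-18). Plin2, a coat protein of lipid droplets, rose by 2.88 ± 0.16. Over all tested genes, whether or not they passed the test, the 10 largest losses held both lipid synthesis genes and mitochondrially encoded transcripts. This set is not the one that held 35.2%, which counts only genes that fell. Scd1, the stearoyl-CoA desaturase, went from 21193 ± 6084 to 10047 ± 2921 CPM and Fasn, the fatty acid synthase, from 8019.7 ± 4410.02 to 1242 ± 516 CPM. In Fasn the groups did not overlap, while in Scd1 they did. Coq8a, a kinase-like protein needed to make coenzyme Q, was at 187, 102, 182, 119 and 134 CPM in the 5 cold mice, against a lowest, median and highest value of 1535, 2488 and 2729.6 CPM in the 7 mice at 29 °C. All 5 cold mice lay below all 7 others, of which mouse 7 was the lowest, and Coq8a fell by 4.03 ± 0.21 log2 units (adjusted p = 5.00e-15). Of the mitochondrially encoded transcripts with the largest losses, mt-Co1 fell by 0.30 ± 0.13 log2 units with overlapping groups, a call lost when any 1 of 8 mice was left out (-0.31 to -0.25 log2 units without mice 1, 2, 5 or 6 at 29 °C or mice 16, 17, 19 or 21 at 5 °C), whereas mt-Cytb (-0.46 ± 0.23), mt-Rnr1 (-0.38 ± 0.43) and mt-Rnr2 (-0.08 ± 0.28) did not pass the test.

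The largest fold changes upward, among genes of at least 10 CPM in the higher group, included several genes nearly silent at 29 °C. Acot5 and Slco1a1 had 0 to 2 counts per mouse at 29 °C and 116 to 1650 at 5 °C, and reads of Acot5 can be shared with other members of its family. Dhrs9, a short-chain dehydrogenase that acts on retinol, was at 712, 792, 597, 648 and 543 CPM in the 5 cold mice, against a lowest, median and highest value of 1.00, 1.77 and 4.37 CPM in the 7 mice at 29 °C. It rose by 8.25 ± 0.42 log2 units. Sgk2, a relative of the serum and glucocorticoid-regulated kinase, rose from 0.177 ± 0.106 to 62.4 ± 14.4 CPM, Hpx, which codes for the heme-binding plasma protein hemopexin, from 0.257 ± 0.196 to 36.5 ± 10.8 CPM, and Slc25a34, a member of the mitochondrial carrier family, from 0.816 ± 0.248 to 67.7 ± 17.2 CPM. Mfsd2a, a lysophospholipid transporter, and Elovl3, a fatty acid elongase, were in the same list with 9.10 ± 0.57 and 8.35 ± 0.55 log2 units. Downward, the list held Gdf5, a BMP-type ligand (-5.95 ± 0.35 log2 units), and the adipokine gene Lep. Leptin mRNA was at 2.67, 8.01, 2.83, 3.53 and 9.22 CPM in the 5 cold mice, against a lowest, median and highest value of 203, 253 and 295 CPM in the 7 mice at 29 °C. No cold mouse reached 203 CPM, the lowest value at 29 °C. Klhdc7a fell from 621 ± 73.2 to 23.6 ± 4.25 CPM, Apcdd1, an inhibitor of Wnt signalling, from 19.7 ± 3.88 to 0.672 ± 0.179 CPM, and Gprin3 from 44.2 ± 9.80 to 2.67 ± 0.976 CPM. Hcar1, the lactate receptor of adipocytes, which restrains cyclic AMP, fell by 4.18 ± 0.27 log2 units, Aplnr, the apelin receptor, fell by 4.13 ± 0.32, and A530016L24Rik (-4.16 ± 0.31) and the antisense gene Gm9885 (-4.09 ± 0.22) fell as well. The counting is not stated to use strand, so reads of Gm9885 and of a gene opposite to it cannot be told apart.

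**Figure D3:**
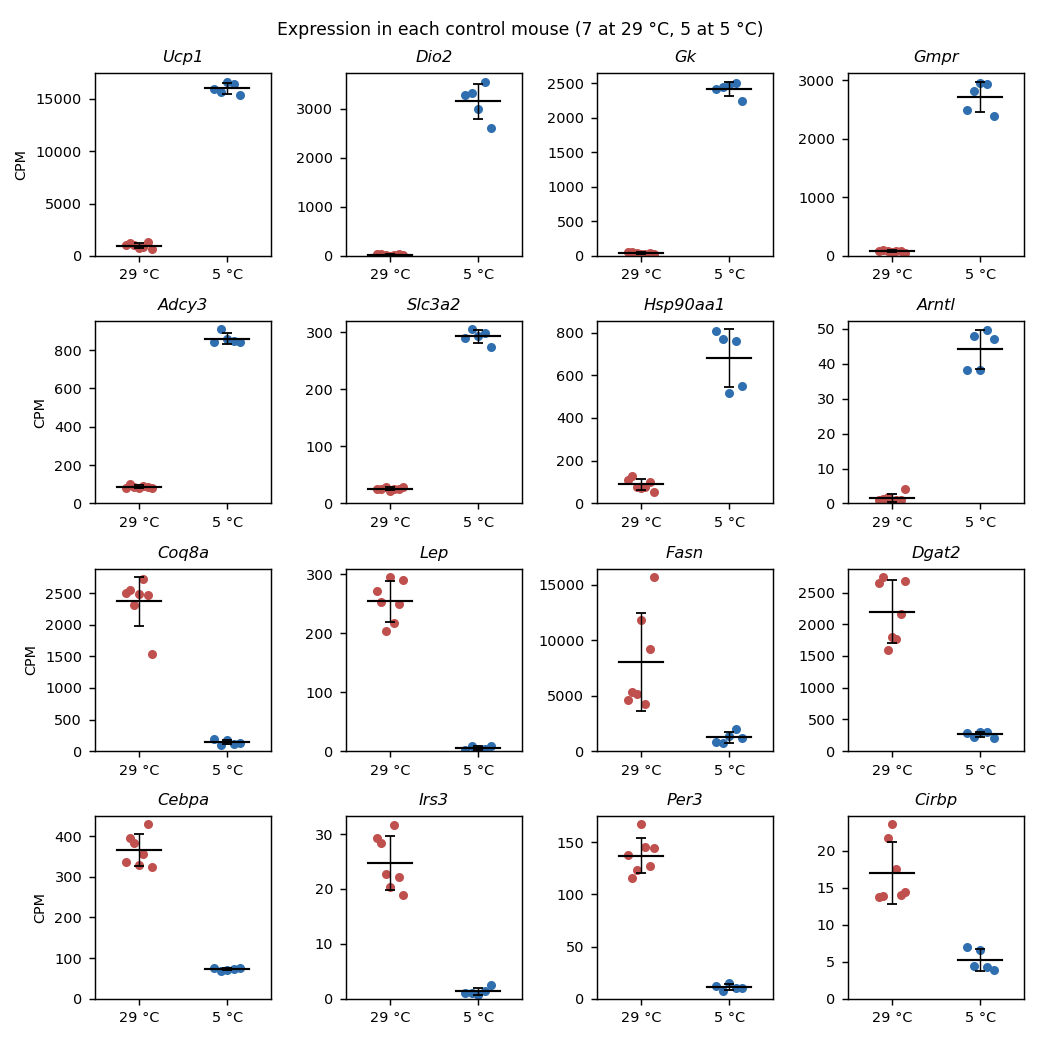
CPM of 16 named genes in each control mouse on linear axes from 0, with the mean and SD as black lines. In each of these genes the 7 mice at 29 °C and the 5 mice at 5 °C do not overlap. Most of them were selected by a rule that asks for this, and 46.4% of all tested genes met it.

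Promoter sequences were read from RefSeq's table (build GRCm38.p6, 250 bases before the start site and 50 after). A total of 11463 tested genes matched by symbol. The promoters of 4 genes are shown because they carry the motif of a factor tied to cyclic AMP or to sugar and clock signals, and because their genes moved strongly: Dio2 and Pnpla3 with a cyclic AMP response element (CRE, TGACGTCA) and Gk and Plin2 with an E-box (CACGTG). Capitals mark the motif.
Dio2, chr12:90738989-90739288, minus strand: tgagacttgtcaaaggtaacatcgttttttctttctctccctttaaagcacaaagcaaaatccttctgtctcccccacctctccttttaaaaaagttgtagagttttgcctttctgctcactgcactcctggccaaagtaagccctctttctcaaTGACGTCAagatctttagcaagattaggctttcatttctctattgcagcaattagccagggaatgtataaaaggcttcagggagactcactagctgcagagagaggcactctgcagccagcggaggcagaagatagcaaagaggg
Pnpla3, chr15:84167566-84167865, plus strand: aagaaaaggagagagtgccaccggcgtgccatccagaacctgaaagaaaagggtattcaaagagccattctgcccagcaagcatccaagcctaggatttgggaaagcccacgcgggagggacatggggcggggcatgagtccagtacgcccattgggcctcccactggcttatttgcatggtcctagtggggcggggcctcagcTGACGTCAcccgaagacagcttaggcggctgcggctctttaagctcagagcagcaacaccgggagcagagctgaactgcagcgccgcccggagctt
Gk, chrX:85776770-85777069, minus strand: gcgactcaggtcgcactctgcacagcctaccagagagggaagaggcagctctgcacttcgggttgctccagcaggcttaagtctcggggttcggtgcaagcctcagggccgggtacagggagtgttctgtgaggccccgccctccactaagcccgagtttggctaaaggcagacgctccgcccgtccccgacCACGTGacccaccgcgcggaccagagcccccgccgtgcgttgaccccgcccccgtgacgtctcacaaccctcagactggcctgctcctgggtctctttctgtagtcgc
Plin2, chr4:86670010-86670309, minus strand: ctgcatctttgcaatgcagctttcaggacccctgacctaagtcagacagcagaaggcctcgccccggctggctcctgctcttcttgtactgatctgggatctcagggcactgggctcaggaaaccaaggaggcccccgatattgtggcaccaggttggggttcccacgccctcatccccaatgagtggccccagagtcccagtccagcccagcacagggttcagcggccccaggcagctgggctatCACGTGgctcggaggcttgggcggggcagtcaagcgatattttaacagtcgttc
Dio2 rose by 7.00 ± 0.56 log2 units and Pnpla3 fell by 2.74 ± 0.26, so the same 8 letters stood in front of a gene that rose and of one that fell. Both motifs read the same on both strands. The CRE was in 1.79% of all 32851 promoters of the table. All other shares were counted by gene, and a gene was taken to hold a motif if any of its promoters did. Shares of promoters and of genes are therefore unlike measures. The CRE was in 3.36% of tested genes, in 4.54% of 3879 that rose, 2.71% of 4100 that fell and 2.81% of 3484 that did neither. Among genes that passed the test against a 2-fold change it was in 3.47% of 662 that rose and 1.89% of 1006 that fell. The shorter TGACG, which the CRE contains, was in 20.8% of all promoters and in 33.6% of tested genes. It was in 40.1% of genes that rose and 29.3% of genes that fell, and in 35.2% and 26.7% of those past 2-fold. The E-box was in 7.15% of all promoters and in 11.2% of tested genes. It was in 13.1% of genes that rose and 10.0% of genes that fell, and in 14.2% and 9.64% of those past 2-fold. CCAAT was in 37.4% of all promoters and in 42.0% of tested genes. It was in 38.7% of genes that rose and 45.0% of genes that fell, and in 40.6% and 43.8% of those past 2-fold. The orphan receptor motifs AAAGGTCA and TCAAGGTCA, which share AAGGTCA, were rarer. AAAGGTCA was in 1.51% of all promoters and in 1.26% of tested genes. It was in 1.34% and 1.27% of genes that rose and fell, and past 2-fold in 15 of 662 (2.27%) and 10 of 1006 (0.994%). TCAAGGTCA was in 0.423% of all promoters, and in 0.340% of tested, 0.180% of risen and 0.293% of fallen genes. Past 2-fold it was in 2 of 662 (0.302%) and 2 of 1006 (0.199%). These shares are descriptions of letters in a 300-base window and were not tested.

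Genes of the adrenergic pathway moved in both directions, as tested genes at large did. Of 47 tested genes of β-adrenergic receptors and cyclic AMP signalling, 21 rose (44.7%) and 14 fell (29.8%), with a median of 0.24 log2 units. The shares of all tested genes were 31.6% and 33.4%. Of the receptors, Adrb3, the main receptor of the mouse adipocyte, fell by 0.58 ± 0.24 log2 units with overlapping groups, and Adrb1 fell by 1.46 ± 0.25. The call of Adrb3 was lost when any 1 of 5 mice was left out (-0.57 to -0.49 log2 units without mouse 2 at 29 °C or mice 16, 17, 18 or 21 at 5 °C). Among adenylyl cyclases, which make cyclic AMP, Adcy3 and Adcy9 moved apart. Adcy3 was at 842, 911, 859, 848 and 840.1 CPM in the 5 cold mice, against a lowest, median and highest value of 78.5, 85.8 and 101 CPM in the 7 mice at 29 °C. Every cold mouse lay far above the others, whereas Adcy9 fell from 76.9 ± 12.1 to 19.0 ± 2.91 CPM. Akap12, a scaffold for protein kinase A, rose by 3.17 ± 0.31 log2 units, and Rgs2, which switches off G proteins, fell by 1.87 ± 0.31. Of 38 immediate early genes, 16 rose and 7 fell (42.1% and 18.4%, median 0.59), and without mouse 7 at 29 °C 12 fell. Nr4a3, an orphan nuclear receptor, rose by 3.55 ± 0.42 and Nfil3, a repressor of the clock's output genes, by 2.42 ± 0.24. Fos, the classical marker of recent stimulation, was at 28.4 ± 23.9 CPM at 29 °C and 16.5 ± 10.7 CPM at 5 °C and did not pass the test (adjusted p = 0.387), and Egr1 fell by 1.75 ± 0.75 with overlapping groups, a call lost when any 1 of 8 mice was left out (-1.89 to -1.48 log2 units without mice 2, 3, 5 or 6 at 29 °C or mice 16, 17, 19 or 21 at 5 °C). Klf10, a growth factor-induced repressor, fell by 1.13 ± 0.20.

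Of 39 thermogenic regulators and thyroid hormone genes, 18 rose (46.2%) and 11 fell (28.2%), with a median of 0.24 log2 units. Dio2, the deiodinase that makes active thyroid hormone inside the tissue, was at 3281, 3327, 2993, 3548 and 2613 CPM in the 5 cold mice, against a lowest, median and highest value of 2.66, 22.8 and 46.6 CPM in the 7 mice at 29 °C. The gap between the groups was wide in comparison with the spread within them. Ppargc1a, the coactivator of mitochondrial genes, was at 783, 567, 552, 538 and 357 CPM in the 5 cold mice, against a lowest, median and highest value of 24.1, 31.9 and 45.5 CPM in the 7 mice at 29 °C. Again the groups lay far apart, and Ppargc1a rose by 4.07 ± 0.21 log2 units (adjusted p = 5.21e-15). Foxo1, a transcription factor held back by insulin, rose by 1.79 ± 0.16. Cebpa, a regulator of the adipocyte's lipid genes, fell from 365 ± 40 to 72.7 ± 3.13 CPM, and Thra, a thyroid hormone receptor, from 75.2 ± 4.26 to 28.1 ± 1.08 CPM. Among 37 secreted factors, 12 rose and 11 fell (32.4% and 29.7%), close to the 31.6% and 33.4% of all tested genes. Fgf21, a hormone of fasting and cold, rose from 0.337 ± 0.434 to 13.8 ± 3.49 CPM, and Fgf9 from 0.463 ± 0.302 to 7.28 ± 1.67 CPM, both from a low level. At 29 °C mouse 7 was the highest in Fgf21, whose mean was 0.179 CPM without it. Angptl2, a secreted relative of the angiopoietins, fell by 2.55 ± 0.12 log2 units. Vegfa (-0.13 ± 0.09) and Nampt (0.07 ± 0.10) did not pass the test, with adjusted p values of 0.189 and 0.537.

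**Figure D4:**
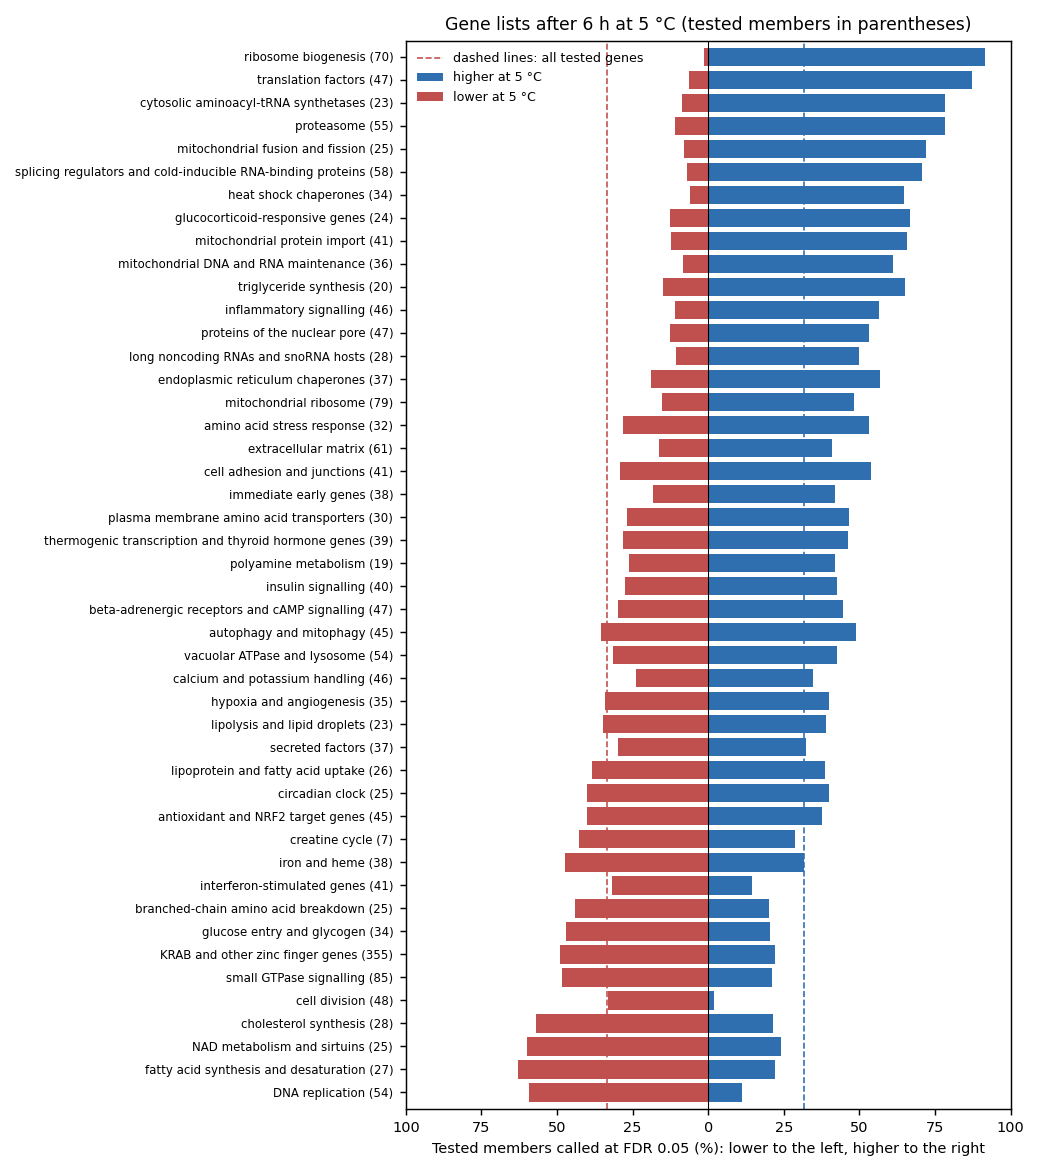
For each of 46 gene lists, the percent of tested members that rose (blue, to the right) or fell (red, to the left) at an FDR of 0.05, ordered by the difference. Dashed lines mark 31.6% and 33.4%, the shares over all 17286 tested genes, and ribosome biogenesis (64 of 70 risen) and DNA replication (32 of 54 fallen) stand at the ends. The lists were not matched for expression level.

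Lipid genes divided by step. Of 27 genes of fatty acid synthesis and desaturation, 6 rose and 17 fell (median -0.74 log2 units). Fasn was at 785, 774, 1409, 2023 and 1217 CPM in the 5 cold mice, against a lowest, median and highest value of 4216, 5301 and 15736 CPM in the 7 mice at 29 °C. It fell by 2.69 ± 0.35 log2 units, Acly, which makes cytosolic acetyl-CoA from citrate, fell by 2.78 ± 0.32, Scd2 fell by 3.28 ± 0.28 and Srebf1, the transcription factor of this pathway, fell by 3.38 ± 0.26. Hacd2, which acts in the elongation of very long chains, rose by 2.68 ± 0.14, as Elovl3 did. Of 20 genes of triglyceride synthesis, 13 rose and 3 fell (median 0.45). Gk, glycerol kinase, which allows the glycerol of broken-down triglyceride to be used again, was at 2424, 2454, 2470.5, 2506 and 2245 CPM in the 5 cold mice, against a lowest, median and highest value of 21.0, 36.0 and 56.7 CPM in the 7 mice at 29 °C. The 5 cold mice were within a narrow range and Gk rose by 6.06 ± 0.27 log2 units (adjusted p = 4.08e-16). Gpam, which adds the first acyl chain, rose by 1.81 ± 0.09. The 2 enzymes of the last step changed in opposite directions, Dgat1 from 137 to 507 CPM (1.89 ± 0.14 log2 units) and Dgat2 from 2199 to 263 CPM (-3.07 ± 0.16). Lpin1, a phosphatidate phosphatase, fell by 0.95 ± 0.16.

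Of 23 genes of lipolysis and lipid droplets, 9 rose and 8 fell (39.1% and 34.8%, against 31.6% and 33.4% of all tested genes). Pnpla2, which starts triglyceride breakdown, fell by 0.34 ± 0.11 with overlapping groups, and Lipe, hormone-sensitive lipase, fell by 1.08 ± 0.11 log2 units. Abhd5, the activator of Pnpla2, rose by 1.98 ± 0.10. The droplet coat genes Plin2 and Plin3 went apart, at 2.88 ± 0.16 and -2.26 ± 0.16, and Pnpla3, a droplet protein of lipid synthesis, fell from 266 ± 144 to 39.7 ± 7.09 CPM. Among 26 genes of lipoprotein and fatty acid uptake, 10 rose and 10 fell (38.5% each, also near the shares of all tested genes). Besides Lpl, Gpihbp1, which holds it on the capillary wall, rose by 0.68 ± 0.10, Lipg, endothelial lipase, by 3.16 ± 0.17 and Slc27a2, a very long chain acyl-CoA synthetase, by 2.08 ± 0.15. Scarb1, the HDL receptor, fell by 1.39 ± 0.10 and Acsl3 fell by 0.85 ± 0.16. Cholesterol synthesis had 28 tested genes, of which 6 rose and 16 fell (median -0.54). The early enzyme Hmgcs1 rose by 0.88 ± 0.14. Fdft1, squalene synthase, fell from 124 ± 12.7 to 13.0 ± 2.63 CPM and Dhcr7, the last enzyme, from 14.2 ± 1.25 to 3.00 ± 0.315 CPM, whereas Hsd17b7 rose by 1.28 ± 0.13 log2 units.

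Glucose and insulin genes changed in composition. Of 34 genes of glucose entry and glycogen, 7 rose and 16 fell (median -0.26 log2 units). Slc2a4, the insulin-responsive transporter, fell by 1.02 ± 0.14, Slc2a5, the fructose transporter, fell by 4.68 ± 0.60 and Ppp1r3b, which directs a phosphatase to glycogen, fell by 2.41 ± 0.26. Slc2a1, the basal transporter, rose by 1.33 ± 0.19 and Gys2, a glycogen synthase, by 1.79 ± 0.20. Of 40 insulin signalling genes, 17 rose and 11 fell (42.5% and 27.5%, against 31.6% and 33.4% of all tested genes). The receptor gene Insr rose by 1.12 ± 0.09. Its substrates moved separately: Irs2 rose by 1.66 ± 0.34, Irs1 did not pass the test (0.10 ± 0.15), and Irs3 fell. Irs3 was at 1.13, 1.05, 0.729, 1.40 and 2.42 CPM in the 5 cold mice, against a lowest, median and highest value of 18.9, 22.8 and 31.7 CPM in the 7 mice at 29 °C. Pik3r1, the regulatory subunit of phosphoinositide 3-kinase, fell from 321 ± 64.8 to 82.2 ± 10.8 CPM.

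Genes of the circadian clock changed in both directions, 10 rose and 10 fell of 25. The hour of dissection is not given in the sources used here, so cold and hour cannot be separated in this paragraph. The part of the hour in the values of these genes and of the glucocorticoid-responsive genes below was not tested. Arntl, the activator of the core loop, was at 38.1, 48.0, 38.3, 49.7 and 47.1 CPM in the 5 cold mice, against a lowest, median and highest value of 0.665, 1.10 and 4.13 CPM in the 7 mice at 29 °C. Per3, a repressor of that loop, was at 12.1, 7.87, 14.8, 10.3 and 10.5 CPM in the 5 cold mice, against a lowest, median and highest value of 116, 138 and 167 CPM in the 7 mice at 29 °C. The groups did not overlap in either gene, with mouse 7 the highest in Arntl at 29 °C, and the changes were 4.74 ± 0.26 and -3.62 ± 0.16 log2 units. Per1 rose by 0.94 ± 0.15, and the output gene Dbp fell from 44.5 ± 14.0 to 4.72 ± 0.548 CPM. Glucocorticoid-responsive genes rose in the main: of 24, 16 rose and 3 fell (median 1.01 log2 units). Fkbp5, a co-chaperone of the receptor, was at 98.1, 98.4, 110.2, 89.1 and 118 CPM in the 5 cold mice, against a lowest, median and highest value of 12.1, 16.4 and 31.3 CPM in the 7 mice at 29 °C. It rose by 2.45 ± 0.22 and Tsc22d3 by 0.58 ± 0.12, the latter with overlapping groups. Cdkn1a, an inhibitor of the cell cycle, rose from 8.28 ± 2.16 to 227 ± 24.8 CPM, the metallothionein gene Mt2 from 5.18 ± 1.29 to 102 ± 32.9 CPM, and Lcn2, a secreted iron-siderophore binder also made by neutrophils, from 0.523 ± 0.221 to 6.70 ± 7.08 CPM. Mouse 21 was the highest in Lcn2, whose mean at 5 °C was 3.57 CPM without it. Nr3c2, the mineralocorticoid receptor, fell by 2.32 ± 0.08 log2 units.

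Of 46 genes of inflammatory signalling, 26 rose and 5 fell (median 0.67). Saa3, an acute-phase protein with close family members, rose from 0.184 ± 0.0416 to 15.3 ± 12.3 CPM, and Ptx3, a secreted pentraxin, from 0.365 ± 0.129 to 24.7 ± 18.8 CPM. The chemokine gene Ccl2 rose by 1.89 ± 0.61 with overlapping groups, and the cytokine gene Il1b (0.26 ± 0.60) did not pass the test. Nos2, the inducible nitric oxide synthase, fell by 2.18 ± 0.16 and Cxcl9, a chemokine induced by interferon γ, fell by 1.53 ± 0.34. The neutrophil markers, whose sum was higher in the cold, moved with these genes, and their part was not tested. Of 41 interferon-stimulated genes, 6 rose and 13 fell (median -0.21), shares of 14.6% and 31.7% against 31.6% and 33.4% of all tested genes, and without both mice richest in muscle RNA 8 fell. The guanylate-binding proteins Gbp3 and Gbp7 fell (-1.39 ± 0.31 and -1.65 ± 0.36 log2 units), Oas1a rose by 0.91 ± 0.22, and Irf7 (-0.49 ± 0.28) did not pass. T and NK cell markers summed to 5.23 to 17.4 CPM at 29 °C and 2.79 to 5.24 at 5 °C, and their part in these values was not tested.

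Genes for making, folding and removing proteins rose more often than they fell, whereas 31.6% of all tested genes rose and 33.4% fell. These lists were not matched for level. Ribosome biogenesis had 70 tested genes, of which 64 rose and 1 fell (median 1.04 log2 units). Polr1a, the large subunit of RNA polymerase I, rose from 33.6 ± 6.38 to 91.2 ± 7.07 CPM, Nop56, a box C/D particle protein, from 23.7 ± 2.83 to 36.5 ± 3.84 CPM, and Rrp12 and Ltv1, which help to export the ribosomal subunits, by 2.42 ± 0.17 and 2.03 ± 0.12 log2 units. Rrp12 was at 87.1, 78.4, 86.8, 69.4 and 89.8 CPM in the 5 cold mice, against a lowest, median and highest value of 12.0, 13.8 and 21.6 CPM in the 7 mice at 29 °C, with no overlap. Of 93 genes of cytosolic ribosomal proteins, which share reads with many processed pseudogenes, 81 rose and 4 fell (median 0.39). Translation factors gave 41 rose and 3 fell of 47 (median 0.58). Eif2b3, a subunit of the exchange factor for eIF2, rose by 1.86 ± 0.07, Eif1a by 1.76 ± 0.12, Eif1 by 1.25 ± 0.11 and the cap-binding Eif4e by 0.96 ± 0.08. Its inhibitors Eif4ebp1 and Eif4ebp2 fell (-1.21 ± 0.12 and -0.63 ± 0.10 log2 units). Of 23 cytosolic aminoacyl-tRNA synthetases, which charge tRNAs, 18 rose and 2 fell (median 1.21), with Iars at 1.79 ± 0.09, Yars at 1.79 ± 0.09, Aars at 1.70 ± 0.09 and Wars at 1.63 ± 0.10.

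Amino acid stress genes, many of them targets of the transcription factor Atf4, gave 17 rose and 9 fell of 32 (median 0.67 log2 units). Atf4 itself rose from 77.6 ± 14.2 to 351 ± 21.7 CPM and Mthfd2, a folate enzyme of mitochondria, from 2.68 ± 0.824 to 41.4 ± 9.40 CPM. Slc3a2, the shared heavy chain of several amino acid transporters, was at 291, 306, 294, 299 and 274 CPM in the 5 cold mice, against a lowest, median and highest value of 22.4, 25.9 and 29 CPM in the 7 mice at 29 °C. The cold mice stood well apart from those at 29 °C. Ddit3, a later gene of the stress pathway, was at 29.1 ± 4.26 CPM at 29 °C and 25.7 ± 4.92 CPM at 5 °C and did not pass the test (adjusted p = 0.414), and Sesn3 fell by 1.55 ± 0.10. Heat shock chaperones rose in 22 of 34 and fell in 2 (median 1.01). Hsp90aa1, the inducible cytosolic HSP90, was at 808, 769.9, 519, 758 and 552 CPM in the 5 cold mice, against a lowest, median and highest value of 54.7, 77.7 and 129.8 CPM in the 7 mice at 29 °C. It rose by 2.93 ± 0.21 and Hspa4l by 2.52 ± 0.15, and the near-identical Hspa1a (0.66 ± 0.83) and Hspa1b (1.05 ± 0.83), whose reads can be shared, did not pass. Hspa2 and Hsf4 fell (-1.0 ± 0.15 and -2.65 ± 0.21 log2 units). Endoplasmic reticulum chaperones and their regulators gave 21 rose and 7 fell of 37 (median 0.43). Hspa5, the main chaperone of the compartment, rose from 288 ± 29.8 to 704 ± 118 CPM, Dnajb9 by 2.44 ± 0.16 and Manf by 1.59 ± 0.13, whereas Xbp1 fell by 0.47 ± 0.18 with overlapping groups (-0.43 to -0.37 and not called without mice 16 or 18 at 5 °C), Edem2 fell by 1.44 ± 0.09 and Ero1lb fell by 0.95 ± 0.13.

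The proteasome list gave 43 rose and 6 fell of 55 (median 0.64). Psmc4, an ATPase of the cap, rose from 49.6 ± 7.07 to 143 ± 8.73 CPM, Psmd11 by 1.48 ± 0.06 and Psma1, of the outer ring, by 1.17 ± 0.10. Nfe2l1, the transcription factor of proteasome genes, rose by 0.24 ± 0.07, and by 0.12 without a call when scaled by library size alone. Among the 6 that fell were the immunoproteasome subunits Psmb8 (-1.07 ± 0.23) and Psmb9 (-2.43 ± 0.28), which replace standard catalytic subunits in immune cells and under interferon. In autophagy and mitophagy 22 rose and 16 fell of 45 (48.9% and 35.6%, against 31.6% and 33.4% of all tested genes). The receptor Sqstm1 rose by 1.91 ± 0.17 and its kinase Tbk1 by 1.48 ± 0.08. The lipid kinase Pik3c3 fell by 0.93 ± 0.07, and Ulk1 (0.07 ± 0.11) did not pass. For the vacuolar ATPase and lysosome, 23 rose and 17 fell of 54 (42.6% and 31.5%, against 31.6% and 33.4% of all tested genes). Atp6v1h, a subunit of the pump, rose by 1.77 ± 0.07 and the protease Ctsz by 2.19 ± 0.10. The heparan sulfate-degrading enzymes Naglu and Sgsh fell (-1.88 ± 0.10 and -2.08 ± 0.15 log2 units), and neither Tfeb (0.10 ± 0.11), the transcription factor of these genes, nor Atp6v0a1 (0.08 ± 0.11) passed.

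**Figure D5:**
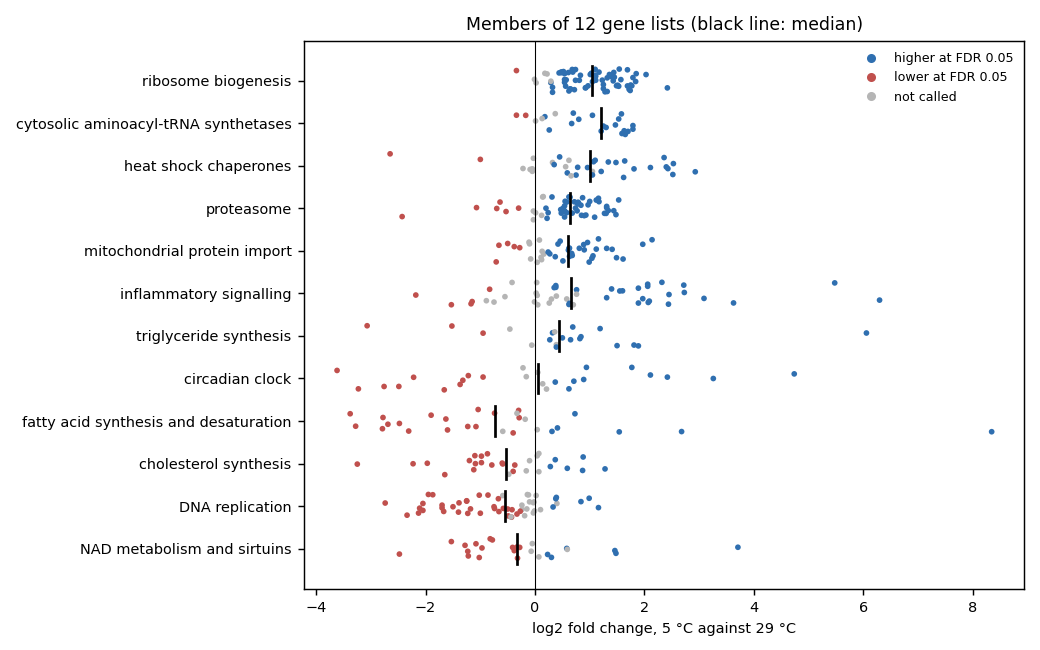
Log2 fold change from 29 °C to 5 °C of every tested member of 12 gene lists, with the median of each list as a black line. The medians of ribosome biogenesis (1.04) and heat shock chaperones (1.01) lie to the right of 0 and those of fatty acid synthesis (-0.74) and DNA replication (-0.54) to the left, with members of both signs in every list.

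Nuclear genes of mitochondrial upkeep rose more often than they fell. Of all tested genes 31.6% rose and 33.4% fell. In the fifth of protein-coding genes with the highest mean CPM 54.6% rose and 23.1% fell. The lists were not matched for level. Protein import gave 27 rose and 5 fell of 41 (median 0.61 log2 units), with the small intermembrane chaperones Timm9 (1.97 ± 0.08) and Timm8a1 (2.14 ± 0.15) rising most, Timm23, the channel of the inner membrane, at 1.06 ± 0.07 and Tomm20, a receptor of the outer membrane, at 0.61 ± 0.07. Tomm34 and Timm21 fell (-0.71 ± 0.08 and -0.66 ± 0.08 log2 units). In the maintenance of mitochondrial DNA and RNA, 22 rose and 3 fell of 36. Polrmt, the mitochondrial RNA polymerase, rose from 19.7 ± 2.70 to 39.0 ± 1.79 CPM, the packaging factor Tfam by 0.39 ± 0.07, the RNA-processing genes Fastkd5 and Trmt10c by 2.17 ± 0.17 and 1.68 ± 0.11, and Polg2, an accessory subunit of the DNA polymerase, fell by 0.85 ± 0.15. Beside them, the share of counts from the mitochondrial genome itself did not rise, as given above. For the mitochondrial ribosome, 38 rose and 12 fell of 79 (48.1% and 15.2%). Changes ran from 1.47 ± 0.09 in Mrpl47 and 1.46 ± 0.09 in Mrps2 to -0.50 ± 0.08 in Mrps15 and -0.45 ± 0.10 in Mrpl49. With library size alone as the scaling, 25 of these 79 rose. Fusion and fission genes gave 18 rose and 2 fell of 25, mostly by small amounts: Mfn2, of fusion, rose by 0.31 ± 0.07 and Dnm1l, the fission GTPase, by 0.20 ± 0.06 (overlapping groups, 0.13 and not called without the 2 mice richest in muscle RNA), while the ligase March5 rose by 1.13 ± 0.06 and Mtfr2 by 3.06 ± 0.30 from 0.267 CPM. Oma1, a stress-activated protease, fell by 1.02 ± 0.10.

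Amino acid and small-molecule pathways had mixed balances. Of 30 plasma membrane amino acid transporters, 14 rose and 8 fell (46.7% and 26.7%, against 31.6% and 33.4% of all tested genes). Slc7a8, a partner of Slc3a2, rose from 2.47 ± 0.717 to 29.5 ± 4.60 CPM, and Slc1a5, the glutamine carrier, fell from 683 ± 106 to 123 ± 16.1 CPM. Slc7a10 (-0.11 ± 0.48), a serine and glycine carrier of adipocytes, did not pass, and Slc6a13 fell by 1.84 ± 0.36. In the breakdown of branched-chain amino acids, 5 rose and 11 fell of 25: Bcat1 rose by 1.72 ± 0.21 and the regulator Klf15 by 1.12 ± 0.21, Acad8 fell by 0.75 ± 0.07, Bckdk, the kinase that inhibits the pathway, fell by 0.64 ± 0.07 and Bckdha fell by 0.34 ± 0.08 with overlapping groups, and Bcat2 (-0.26 ± 0.12) did not pass. In the creatine cycle, of 7 genes 2 rose and 3 fell, with Ckb at 0.59 ± 0.21 (overlapping groups, 0.52 and not called without mouse 16 at 5 °C), Alpl at 0.51 ± 0.16, and the synthesis enzymes Gatm at -1.13 ± 0.18 and Gamt at -0.97 ± 0.13 log2 units. Polyamine genes gave 8 rose and 5 fell of 19 (42.1% and 26.3%). Odc1, the rate-limiting enzyme, rose from 27.6 ± 1.84 to 127 ± 11.9 CPM, Sat1, which acetylates polyamines, by 0.90 ± 0.10 and the transporter Atp13a3 by 1.49 ± 0.09, while Azin2 and Sat2 fell (-2.43 ± 0.26 and -1.83 ± 0.15 log2 units).

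NAD genes were lower on balance, 6 rose and 15 fell of 25 (median -0.33 log2 units). Nnmt, which methylates nicotinamide, rose from 11.4 ± 6.89 to 151 ± 17.3 CPM and Bst1 by 1.48 ± 0.20, and Naprt, which makes NAD from nicotinic acid, fell from 27.9 ± 2.60 to 4.99 ± 0.979 CPM and Nmnat3 fell by 1.53 ± 0.13. Iron and heme genes gave 12 rose and 18 fell of 38 (31.6% and 47.4%, against 31.6% and 33.4% of all tested genes). Hmox1, heme oxygenase, was at 491, 476, 397, 571 and 773 CPM in the 5 cold mice, against a lowest, median and highest value of 7.73, 8.95 and 11.0 CPM in the 7 mice at 29 °C. The groups were far apart, with a change of 5.87 ± 0.30 log2 units. Slc39a14, an importer of iron and zinc, rose by 3.13 ± 0.17, Tfrc, the transferrin receptor, fell by 1.82 ± 0.28, and the heme synthesis genes Alas1 and Alad fell (-1.08 ± 0.12 and -1.39 ± 0.08 log2 units). Of 45 antioxidant genes and targets of Nfe2l2 (NRF2), 17 rose and 18 fell. Nfe2l2 itself (0.22 ± 0.13) did not pass, Tkt, transketolase of the pentose phosphate pathway, fell from 2407 ± 579.6 to 755 ± 138 CPM, and Gsta4 fell by 0.85 ± 0.11.

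Vessel, matrix and junction genes changed individually. Of 35 hypoxia and angiogenesis genes, 14 rose and 12 fell. Pgf, placental growth factor, rose from 1.81 ± 1.15 to 30.2 ± 10.4 CPM, Hif1a by 1.00 ± 0.14 and the collagen hydroxylase P4ha1 by 1.85 ± 0.21, and Angpt1, a vessel-stabilizing ligand, fell from 64.7 ± 15.1 to 5.29 ± 1.08 CPM. Endothelial markers summed to 956 to 1212 CPM at 29 °C and to 1302 to 1494 at 5 °C, and their part in these values was not tested. In the extracellular matrix list 25 rose and 10 fell of 61 (41.0% and 16.4%). Adam12, a membrane metalloprotease, was at 385, 415, 448, 396 and 388 CPM in the 5 cold mice, against a lowest, median and highest value of 9.79, 15.8 and 37.9 CPM in the 7 mice at 29 °C. Mouse 7 was the highest at 29 °C. Adam12 rose by 4.41 ± 0.24 and Adamts4, a protease of proteoglycans, by 4.52 ± 0.36, Mmp15 and Sparcl1 fell (-1.48 ± 0.16 and -1.11 ± 0.09 log2 units), and Col1a1 (-0.16 ± 0.35) and Fn1 (-0.02 ± 0.22) did not pass. In adhesion and junctions 22 rose and 12 fell of 41 (53.7% and 29.3%, median 0.40). Cldn1, a tight junction protein, rose from 2.16 ± 0.917 to 88.6 ± 20.1 CPM, Itga3 by 2.35 ± 0.26, Cdh2, N-cadherin, fell by 1.65 ± 0.15 and Itgb5 fell by 1.80 ± 0.10. For calcium and potassium handling, 16 rose and 11 fell of 46 (34.8% and 23.9%). Atp2a2, the calcium pump of the endoplasmic reticulum, rose from 217 ± 28.0 to 856 ± 29.6 CPM and the sodium pump subunit Atp1b1 by 2.05 ± 0.15, Kcnk3, a potassium channel of brown adipocytes, by 1.10 ± 0.15, and Itpr2, a calcium release channel, fell by 1.64 ± 0.10.

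Of 54 DNA replication genes, 6 rose and 32 fell (59.3%, against 33.4% of all tested genes, median -0.54 log2 units). Mcm2, of the helicase, fell by 1.40 ± 0.17 and Ccne1, cyclin E1, fell by 2.74 ± 0.28. Tyms, thymidylate synthase, rose by 1.16 ± 0.14 and E2f7 by 0.99 ± 0.20, and the clamp Pcna was level at 0.02 ± 0.07 (95% interval -0.12 to 0.17). Of 48 cell division genes, 1 rose and 16 fell, and the 33.3% that fell were close to the 33.4% of all tested genes. Cenpa, the centromere histone, and Ncapd2, of condensin, fell (-2.01 ± 0.22 and -1.98 ± 0.10 log2 units), while Mki67 (-0.34 ± 0.26) and Top2a (-0.32 ± 0.26) did not pass. Of 39 replication-dependent histone genes, which are near-identical in part and whose mRNAs lack poly(A) tails, 0 rose and 30 fell (median -0.99), with 0 risen at an unadjusted p below 0.05 in edgeR and 0 risen at an FDR of 0.05 in DESeq2. B cell markers were also lower in the cold, and their part in these values was not tested.

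RNA-binding and nuclear genes closed the list. Of 58 splicing regulators and cold-inducible RNA-binding proteins, 41 rose and 4 fell (median 0.36 log2 units). Both cold-inducible proteins changed, in opposite directions. Cirbp was at 7.00, 4.46, 6.57, 4.26 and 3.92 CPM in the 5 cold mice, against a lowest, median and highest value of 13.7, 14.4 and 23.7 CPM in the 7 mice at 29 °C, and fell by 1.69 ± 0.33 log2 units. Rbm3 rose by 0.64 ± 0.11, Elavl1, an RNA-stabilizing protein, by 1.57 ± 0.06 and Mbnl2, a splicing regulator, by 1.22 ± 0.08, and Luc7l2 fell by 0.64 ± 0.09. Long noncoding RNAs and snoRNA hosts gave 14 rose and 3 fell of 28. Neat1, the scaffold of paraspeckles, was at 2333, 3589, 2265, 3777 and 5405 CPM in the 5 cold mice, against a lowest, median and highest value of 479, 607 and 1016 CPM in the 7 mice at 29 °C. Mouse 7 again gave the highest value at 29 °C. Malat1, of nuclear speckles, rose by 0.35 ± 0.09 log2 units. Snhg15 rose by 1.45 ± 0.21, and Snhg11 and Snhg18 fell (-2.12 ± 0.15 and -1.01 ± 0.12 log2 units). Nuclear pore and transport genes gave 25 rose and 6 fell of 47: Ranbp2 and Nup153, of the pore's cytoplasmic and nuclear faces, rose by 1.36 ± 0.06 and 0.89 ± 0.08 and the importin Ipo4 by 1.52 ± 0.09, Ndc1, which anchors the pore in the membrane, and Aaas fell (-2.42 ± 0.10 and -1.72 ± 0.10 log2 units), and Nup35 (0.09 ± 0.12) did not pass. Zinc finger genes, mostly KRAB repressors, gave 78 rose and 174 fell of 355 (median -0.32), from 1.80 ± 0.10 in Zfp770 and 1.44 ± 0.17 in Zfp57 to -2.93 ± 0.32 in Zfp454 and -3.01 ± 0.16 in Zfp467. Of 85 genes named as exchange factors or activating proteins of small GTPases, 1 antisense gene included, 18 rose and 41 fell (median -0.28), with Arhgef37 (3.32 ± 0.25) and Arhgef33 (2.10 ± 0.32) the largest rises by the naming rule and Arhgap28 (-1.77 ± 0.16) among the falls it selects.

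The mice labelled FAKO (7 at each temperature) were compared with each other in the same fit. The difference of the 2 responses passed an FDR of 0.05 in 200 of the 17286 genes (1.16%) and in 4 of the 252 genes named here. Neat1 rose by 2.45 ± 0.19 log2 units in control mice, and the rise was 0.84 in those labelled FAKO (adjusted p = 0.00268 for the difference). In the other 3 genes the fall was smaller in mice labelled FAKO. These genes were named for their large falls in control mice. That choice favours a smaller fall in the other mice, so the direction is not a separate result. The change was -2.33 log2 units for Cebpa in controls against -1.86 in the FAKO mice, -1.80 against -1.29 for Itgb5, and -2.42 against -1.94 for Ndc1.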

How the data were processed

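RNA from BAT of 26 male mice was sequenced by the authors as stranded, rRNA-depleted single-end libraries. Per the labels and methods, reads were aligned to mm10 with STAR 2.5.2b and assigned to genes with featureCounts 1.5.2. The authors deposited these counts without normalization. The strand setting of the counting is not given in the sources used here. All 26 columns were used, and 50462 of 50686 gene IDs had a symbol in GENCODE M21, which is on the same build.

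Genes were kept with filterByExpr by group (17286). A quasi-likelihood model with TMM factors and 1 term for each of 4 groups was fitted to all 26 libraries with edgeR 4.0.16 in its legacy mode (R 4.3.3), the authors' tool being edgeR 3.22.0. P-values were adjusted by Benjamini-Hochberg over all tested genes, with a threshold of 0.05, and glmTreat was used for changes over 2-fold. Shares were compared with exact two-sided permutation tests in scipy 1.17.1, whose smallest p with 7 mice against 5 is 0.00253. Nothing says whether a library was prepared more than once from a mouse. All 31 pairs of control mice of a group differed by more than sampling noise (lowest chi-square per gene 8.05). The steps were tested on simulated data of 16653 genes, of which 97 changed 2-fold and 100 changed 8-fold. There edgeR found 79 and 99 of them, with 8 false calls. Far fewer genes changed than in the real data, so the simulation cannot show how the scaling holds under so broad a response.

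The comparison, the 46 lists and the marker lists were chosen with earlier results of these data known. The genes named are the first 2 of each list, the 2 largest called rises and falls within a list (non-overlapping mice, and 1 CPM or more on average), the 12 largest called changes in either direction (non-overlapping mice, and at least 10 CPM in the higher group), and the 10 largest gains and losses in CPM. No gene was named outside this rule. Some genes that it selects are not reported here. The promoters printed were chosen after the values were seen.

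The alternatives were library size alone, upper-quartile factors, DESeq2 1.42.0, 2 other filters (at least 1 count in all, at least 10 counts in every control mouse), the 12 control libraries alone, robust empirical Bayes, leaving out each mouse and, chosen after seeing the data, leaving out both libraries richest in muscle RNA.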

Additional observations from a re-analysis of the deposited data

Results flagged for a closer look

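Mouse 7 at 29 °C stood apart from the other 6 in several measures. Its 10 most abundant genes took 22.8% of the counts (38.7 to 44.8% in the others) and its mitochondrially encoded genes 14.3% (33.9 to 40.5%). Its summed markers were 14797 CPM for skeletal muscle (72.8 to 3850.4 in the others), 2991 for fibroblasts and preadipocytes (1221 to 1799), 1137 for red blood cells (236 to 493), 75.8 for mast cells (38.2 to 48.0) and 6.74 for neutrophils (2.5 to 3.93). Among genes given mouse by mouse, it was far from the others in Neat1 (1016 CPM against 479 to 693), Adam12 (37.9 against 9.79 to 20.7), Arntl (4.13 against 0.665 to 1.77) and Coq8a (1535 against 2318 to 2729.6). Mouse 5 at 29 °C had the smallest library, with 12705969 counts against 16154115 to 18262061. At 5 °C mouse 17 had 691 CPM of red blood cell markers (423 to 477 in the others) and 911 CPM of Adcy3 (840.1 to 859). A mouse was taken to stand apart where its gap to the nearest other mouse, divided by the range of its group, was above Dixon's 95% critical value. By that definition chance gives about 1 in 20 groups, and 14 of 74 groups, which share mice and are not independent, had such a mouse.

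The cold response differed between control mice and mice labelled FAKO in 4 named genes by the interaction term. The response of mice labelled FAKO minus that of control mice was -1.61 log2 units for Neat1, 0.47 for Cebpa, 0.51 for Itgb5 and 0.48 for Ndc1. Cebpa, Itgb5 and Ndc1 were named for their large falls in control mice, which favours this direction.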

How the results depend on the processing

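No paired analysis was possible because the 2 groups share no replicate number. With each mouse left out, between 5282 and 5391 genes were higher after cold, 5565 to 5908 lower, 902 to 971 over 2-fold higher and 1357 to 1512 over 2-fold lower. The only setting that moved these counts by more than 1.5 times was the filter of at least 10 counts in every control mouse, with 615 genes over 2-fold higher and 952 over 2-fold lower out of 13187 tested. Library size alone moved the median change of all genes from -0.01 to -0.14 log2 units and upper-quartile factors moved it to -0.12. The difference in the share of the 10 most abundant genes was -7.90 to -4.23 percentage points with each mouse left out and -0.144 without mitochondrially encoded genes, and that in the mitochondrially encoded share -8.35 to -3.98. Both passed the threshold only without mouse 7 at 29 °C. With DESeq2, 8 named genes differed in their response between genotypes, against 4. Of 1840 list counts under other settings, 1822 stayed within 1.5 times. Of 5015 values of the 252 named genes, 4928 kept their direction and call. Of the called genes 0 changed sign, and 7 lost the call in at least 1 setting (Adrb3, Ckb, Dnm1l, Egr1, Nfe2l1, Xbp1 and mt-Co1). Bcat2, Irf7, Nfe2l2, Vegfa and mt-Cytb passed when certain single mice were left out. The sign turned in 10 genes without a call. With library size alone it was -0.06 for Atp6v0a1, -0.05 for Irs1, -0.04 for Nampt, -0.03 for Nup35, -0.10 for Pcna, -0.03 for Tfeb and -0.06 for Ulk1. With upper-quartile factors it was -0.03 for Atp6v0a1, -0.01 for Irs1, -0.04 for Nampt, -0.01 for Nup35, -0.08 for Pcna, 0.00 for Tfeb and -0.04 for Ulk1. Pcna was at -0.02 with the stricter filter and with the control libraries alone. Without both muscle-rich libraries Col1a1 was at 0.20 and Slc7a10 at 0.61. With each mouse left out the values ran from -0.28 to 0.24 for Col1a1, -0.16 to 0.10 for Fn1, -0.06 to 0.19 for Irs1, -0.02 to 0.05 for Pcna and -0.34 to 0.69 for Slc7a10. The cause of these changes was not tested. Low genes were limited by depth, and at 12705969 counts a gene of 1 CPM has about 13 reads.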

Other observations

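Protein-coding genes that share a symbol stem gave other groups, picked after their values were seen. Of all 13662 protein-coding genes tested, 33.7% rose and 36.1% fell. Of 35 Ddx genes (DEAD-box RNA helicases) 26 rose and 5 fell, of 29 Med genes (Mediator subunits) 21 rose and 3 fell, of 21 Taf genes (mostly TFIID subunits) 15 rose and 3 fell, and of 28 Polr genes (RNA polymerase subunits) 17 rose and 5 fell. Of 20 Nudt genes (hydrolases of nucleoside diphosphate derivatives) 2 rose and 14 fell (median -0.93 log2 units), of 20 Clec genes (C-type lectins, many of immune cells) 4 rose and 12 fell, of 34 Kif genes (kinesins) 4 rose and 15 fell, and of 29 Tbc genes (mostly activating proteins of Rab GTPases) 9 rose and 17 fell.

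The direction of the response differed along the range of expression. Among 13662 protein-coding genes, the fifth with the lowest mean CPM had 15.4% risen and 38.2% fallen (median -0.39 log2 units), and the fifth with the highest had 54.6% risen and 23.1% fallen (median 0.27). The gene lists above were not matched for level, and how far their counts follow it was not tested. By class of transcript, 42 of 65 long noncoding RNAs from bidirectional promoters fell and 8 rose (median -0.77), 117 of 276 processed transcripts fell and 51 rose, and of 552 processed pseudogenes, whose reads can come from their parent genes, 158 rose and 54 fell. The 95% interval of the change lay within -0.25 to 0.25 log2 units in 718 tested genes.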
